A study of Homo sapiens with 23 samples.

Results

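The genes described here were 9 that carry or sense short-chain fatty acids at the cell surface, out of 20033 protein-coding genes of the GENCODE 44 annotation. They were chosen by name and function: the monocarboxylate transporters SLC16A1, SLC16A3 and SLC16A4, the sodium-coupled transporter SLC5A8, the transporter chaperone BSG, the efflux pump ABCG2, and the receptors FFAR2, FFAR3 and HCAR2. Each gene was read over a window made of its body and 5 kb on both sides (hg38), and its coverage is the percentage of that window that the peaks of a library cover. Within a list no 2 peaks overlapped, and the text calls each of them a region. A start site was called occupied when a region lay within 500 bp of the start of the gene's canonical transcript. All 9 windows were scored in all 23 libraries, though a peak list does not tell an empty window from one where reads are hard to place.

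Chromatin immunoprecipitation followed by sequencing (ChIP-seq) finds the places where a histone mark sits, by pulling down chromatin with an antibody against the mark. The cells were SW480, a human cell line from colorectal cancer epithelium, treated for 12 to 16 h with 10 mM sodium propionate (NaPr) or 1 mM sodium butyrate (NaBu), or left untreated (0 mM). The propionyl marks H3K18pr and H4K12pr were mapped after NaPr and the butyryl marks H3K18bu and H4K12bu after NaBu, while the acetyl marks H3K18ac and H4K12ac were mapped in all 3 conditions. These were 10 groups of 2 libraries, with 1 input library of sheared chromatin for each condition. The input grouped as untreated carries the tag acet in its title, which does not itself name untreated cells. The study calls the libraries of a mark experimental replicates, and the titles of the untreated ones carry the tags cnt1 and cnt2, but no label says that replicates came from separate cultures. Their spread may therefore be technical, and all values come from a single cell line.

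Short-chain fatty acids are made by gut bacteria from fibre and serve the colon epithelium as fuel. They cross the membrane as anions with a proton or with sodium, through SLC16A1 (MCT1), SLC16A3 (MCT4) and SLC5A8 (SMCT1), and BSG (basigin, CD147) brings MCT1 and MCT4 to the surface. At the cell surface they are sensed by the G protein-coupled receptors FFAR2 (GPR43), FFAR3 (GPR41) and HCAR2 (GPR109A). Acylation of H3K18 and H4K12 is a chromatin mark and not a measure of transcript or protein, neither of which was measured in these lists.

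The immunoprecipitated lists held between 8158 and 208823 regions, with the 4 butyryl lists between 8158 and 22497, and the depth in reads is not part of the lists. In the butyryl lists 61.8% to 79.0% of all genes had no region in their window, so an empty window there is common. Coverage is bounded by how much of the genome a list covers, so calls are given beside the share of all genes called in the same way. In 14 of the 20 immunoprecipitated libraries, the list overlapped most with that of its own replicate. H3K18ac NaPr replicate 1 overlapped most with H4K12ac untreated replicate 1 (Jaccard index 0.512, against 0.300 with its own replicate), and H4K12ac NaBu replicate 2 was short (11680 regions, against 88658 in replicate 1) and held no region in any of the 9 windows. Names of the deposited lists carry 3 different tags, 1 on the propionyl libraries, 1 on the NaPr and untreated acetyl libraries and 1 on all NaBu libraries. No label says what these tags stand for, and they are treated here as possible batches. Of 10 colon epithelial marker genes, 8 had an occupied start in each H3K18ac untreated library (CDX1 and LGALS4 did not), whereas of 10 markers of other cell types 1 and 2 did. These were CD14 in both, which was occupied in 14 of 20 immunoprecipitated libraries, and INS in 1. Of all genes, 64.7% and 67.2% had an occupied start in the H3K18ac untreated libraries, and the marker counts were not tested against this share.

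The sequences below show the DNA at the member with the most coverage, at its chaperone and at a transporter whose start was occupied in no library. RefSeq promoters of the GRCh38.p14 build, which run from 250 bases before to 50 after the start, were at hand for 6 of the 9 canonical starts and not for SLC16A1, FFAR3 and HCAR2. All sequences are written 5′ to 3′, on the gene's strand, with capitals marking matches to GGGCGG (GC box) or CACGTG (E-box) on either strand. The first line is not a promoter but the 300 bases centred on the median summit of the SLC16A3 region at the gene's 5′ end, read from hg38.
SLC16A3 upstream region, chr17:82217388-82217687, plus strand: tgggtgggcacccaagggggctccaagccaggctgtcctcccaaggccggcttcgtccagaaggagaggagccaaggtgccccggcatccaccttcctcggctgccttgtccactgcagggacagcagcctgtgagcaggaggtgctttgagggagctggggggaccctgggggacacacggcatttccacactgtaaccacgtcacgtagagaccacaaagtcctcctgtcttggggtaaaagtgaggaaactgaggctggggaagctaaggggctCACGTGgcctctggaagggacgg
SLC16A3 promoter, chr17:82228792-82229091, plus strand: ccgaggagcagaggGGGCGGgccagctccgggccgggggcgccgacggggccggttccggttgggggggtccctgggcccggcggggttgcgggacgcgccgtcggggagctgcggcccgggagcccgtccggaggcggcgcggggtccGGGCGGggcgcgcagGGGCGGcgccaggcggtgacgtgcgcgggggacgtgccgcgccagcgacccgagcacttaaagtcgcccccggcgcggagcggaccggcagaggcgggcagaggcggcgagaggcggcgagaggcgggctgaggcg
BSG promoter, chr19:572346-572645, plus strand: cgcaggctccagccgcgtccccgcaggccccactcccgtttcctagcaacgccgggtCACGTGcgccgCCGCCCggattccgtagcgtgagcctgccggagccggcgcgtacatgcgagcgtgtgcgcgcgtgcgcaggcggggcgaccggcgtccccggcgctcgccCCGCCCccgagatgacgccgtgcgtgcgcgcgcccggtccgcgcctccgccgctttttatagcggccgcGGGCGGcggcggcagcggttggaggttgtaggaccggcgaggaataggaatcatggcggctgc
SLC5A8 promoter, chr12:101210189-101210488, minus strand: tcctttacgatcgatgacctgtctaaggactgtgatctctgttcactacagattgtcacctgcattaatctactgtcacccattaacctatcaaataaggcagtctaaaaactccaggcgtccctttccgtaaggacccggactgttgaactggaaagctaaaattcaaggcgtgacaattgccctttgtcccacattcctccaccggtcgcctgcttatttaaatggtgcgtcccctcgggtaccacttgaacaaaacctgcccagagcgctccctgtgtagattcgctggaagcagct

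The SLC16A3 promoter was 82.7% G or C with 3 GC boxes, and the BSG promoter 75.3% with 3 GC boxes and 1 E-box. The ABCG2 promoter was 72.0% G or C and held none of the motifs searched, namely the GC box, the E-box, the AP-1 motif TGANTCA and the CCAAT box, on both strands. The SLC5A8 promoter at 48.7%, the SLC16A4 promoter at 49.3% and the FFAR2 promoter at 40.3% were below the median of 58.7% over 35116 promoters, and of these only FFAR2 held a motif, 1 E-box. The upstream SLC16A3 region was 62.7% G or C, with an observed to expected CpG ratio of 0.31 against 1.07 in the SLC16A3 promoter, and held 1 E-box. For scale, 45.0% of all promoters held a GC box, 7.26% an E-box, 7.71% an AP-1 match and 34.6% a CCAAT match, and 5.29% of 76888 windows of this length on the summits of H3K18ac untreated replicate 1 held an E-box. A match is a string of letters and not a measured binding site.

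**Figure D1:**
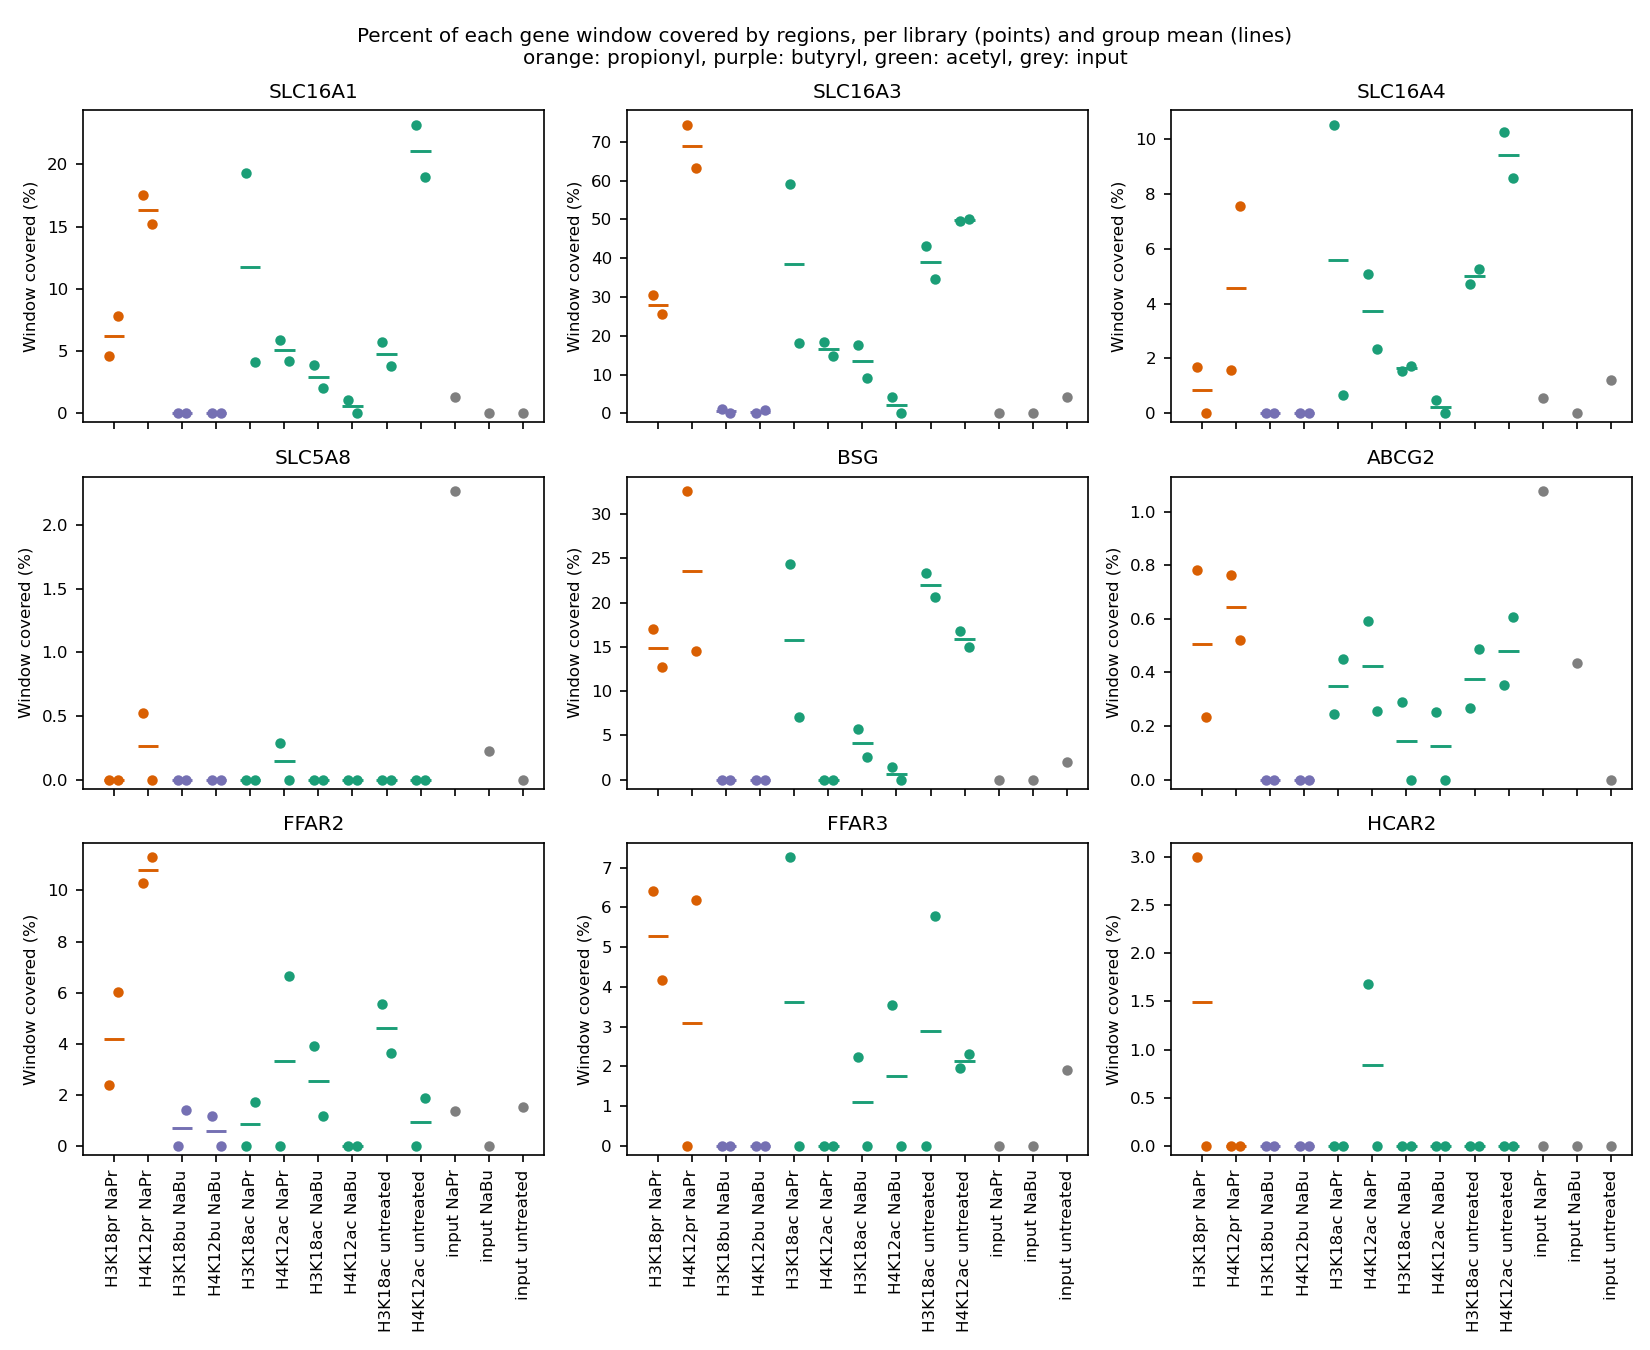
Percent of the gene window covered by regions (y axis, own scale for each gene) in each library (points) by group (x axis), with the mean of the 2 libraries as a line. SLC16A3 reaches 74.5% in an H4K12pr library, whereas SLC5A8, ABCG2 and HCAR2 stay at or below 2.99% in every immunoprecipitated library.

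Over the 20 immunoprecipitated libraries, median coverage was 18.3% for SLC16A3, 6.43% for BSG, 4.17% for SLC16A1, 1.62% for SLC16A4, 1.57% for FFAR2 and 0.263% for ABCG2, and 0% for FFAR3, HCAR2 and SLC5A8. SLC16A3 was covered more than BSG in 17 libraries and equally, at 0, in 3. The genes that follow were not apart in this way. BSG exceeded SLC16A1 in 10 libraries and was lower in 5, and SLC16A4 exceeded FFAR2 in 7 and was lower in 10. SLC16A1 exceeded SLC16A4 in 14 and was lower in 1. Within a library, the median rank of SLC16A3 was at percentile 97.5 of all genes, that of BSG at 77.1, of SLC16A1 at 63.8 and of SLC16A4 at 40.2.

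SLC16A3 (ENSG00000141526.18, chr17:82217934-82261129, plus strand) encodes the proton-coupled transporter that exports lactate from glycolytic cells. Its window was covered by 30.4% and 25.7% in the 2 H3K18pr libraries and by 74.5% and 63.3% in the H4K12pr libraries. In the acetyl libraries after NaPr, coverage was 59.1% and 18.05% for H3K18ac and 18.5% and 14.9% for H4K12ac. After NaBu it was 17.7% and 9.07% for H3K18ac and 4.32% and 0% for H4K12ac. Both butyryl marks were near 0, with 1.12% and 0% for H3K18bu and 0% and 0.786% for H4K12bu. In these short lists, however, the values of 1.12% and 0.786% stood at percentiles 80.9 and 90.7 of all genes. Untreated cells had 43.3% and 34.7% for H3K18ac and 49.6% and 50.01% for H4K12ac, and of the inputs only the untreated one held regions, covering 4.16%. The H4K12pr libraries were thus the highest of all, and the pair of H3K18ac NaPr libraries the most uneven. The untreated input, however, placed SLC16A3 at percentile 98.07 of all genes, with 6 regions and an occupied start. Without regions over an input region, coverage was 15.4% and 13.05% for H3K18pr and 38.8% and 39.96% for H4K12pr. H3K18ac then had 14.8% and 17.6% in untreated cells. After NaPr it had 40.8% and 5.64%. H4K12ac in untreated cells had 39.7% and 38.4%, which overlapped with H4K12pr, so H4K12pr was no longer highest. H4K12ac after NaPr changed little, to 17.2% and 13.5%.

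The gene CSNK1D, a casein kinase on the opposite strand, overlaps the last 27107 bp of the SLC16A3 window, and regions there cannot be given to either gene. In the 26089 bp without CSNK1D, coverage was 44.01% and 48.2% for H3K18pr, 71.5% and 60.5% for H4K12pr, and 12.8% and 7.14% for H4K12ac after NaPr. Untreated cells had 42.9% and 45.8% for H4K12ac and 67.4% and 52.5% for H3K18ac, which stood at 33.5% and 17.8% after NaBu. In the part shared with CSNK1D, H3K18pr covered only 17.3% and 4.10% while H4K12pr covered 77.3% and 66.1%. The propionyl mark on H4K12 thus spread over the whole window and the one on H3K18 lay mostly outside CSNK1D. This split was not particular to propionyl marks. In the shared part, H3K18ac covered only 20.02% and 17.7% in untreated cells and 2.52% and 0.627% after NaBu. H4K12ac covered 56.2% and 54.05% of it in untreated cells and 23.99% and 22.3% after NaPr. H3K18ac NaPr replicate 1 went the other way, with 57.7% in the shared part and 60.5% outside, whereas replicate 2 had 3.63% and 33.03%.

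A region next to the 5′ end of the annotated gene, which lies 11108 bp upstream of the canonical start, recurred across the groups. A region within 500 bp of this 5′ end was found in 17 of 20 immunoprecipitated libraries, and the 3 without one were H3K18bu replicate 2, H4K12bu replicate 1 and H4K12ac NaBu replicate 2. Its summit lay 11381 to 11673 bp before the canonical start, and in 15 of the 17 it was the strongest SLC16A3 region by the caller's p-value. The exceptions were H3K18bu replicate 1, whose strongest region lay 958 bp before the start, and H4K12ac NaBu replicate 1, where it lay at 11986 bp. By fold H3K18ac untreated replicate 2 was an exception too, with a fold of 27.4 in a region from 1301 to 119 bp before the start. Fold enrichment over control at its summit was 59.7 and 39.6 in the H3K18pr libraries, 35.3 and 32.2 in the H4K12pr libraries and 57.3 and 23.8 in the H3K18ac untreated libraries. The acetyl libraries after NaPr had 13.5 and 14.4 for H3K18ac and 5.51 and 3.81 for H4K12ac. For H4K12ac in untreated cells it was 9.75 and 10.3. Fold changes with depth and control, so folds of different lists do not measure more or less of a mark. After NaBu the fold was 13.8 and 8.58 for H3K18ac and 4.04 for H4K12ac replicate 1. The single butyryl values were 3.22 for H3K18bu and 3.30 for H4K12bu, in regions of 205 and 418 bp.

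By the caller's p-value the same region was among the strongest of whole lists. It ranked 50 of 76888 in H3K18ac untreated replicate 1, where it was 5539 bp wide, and 229 in replicate 2. It ranked 117 and 119 in the H4K12pr libraries and 163 and 201 in the H3K18pr libraries. After NaBu its rank was 3654 and 6842 for H3K18ac and 33057 for H4K12ac replicate 1. Ranks describe a region inside its own list, and differences between lists were not tested. The untreated input held a weak region of fold 1.69 between 12267 and 11737 bp before the canonical start, which overlaps the wider of these regions. The lncRNA ENSG00000264548 ends just before the gene, at base 82217352, so that its 3′ end lies under the wider of these regions, and a second lncRNA, ENSG00000275888, starts inside the window.

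**Figure D2:**
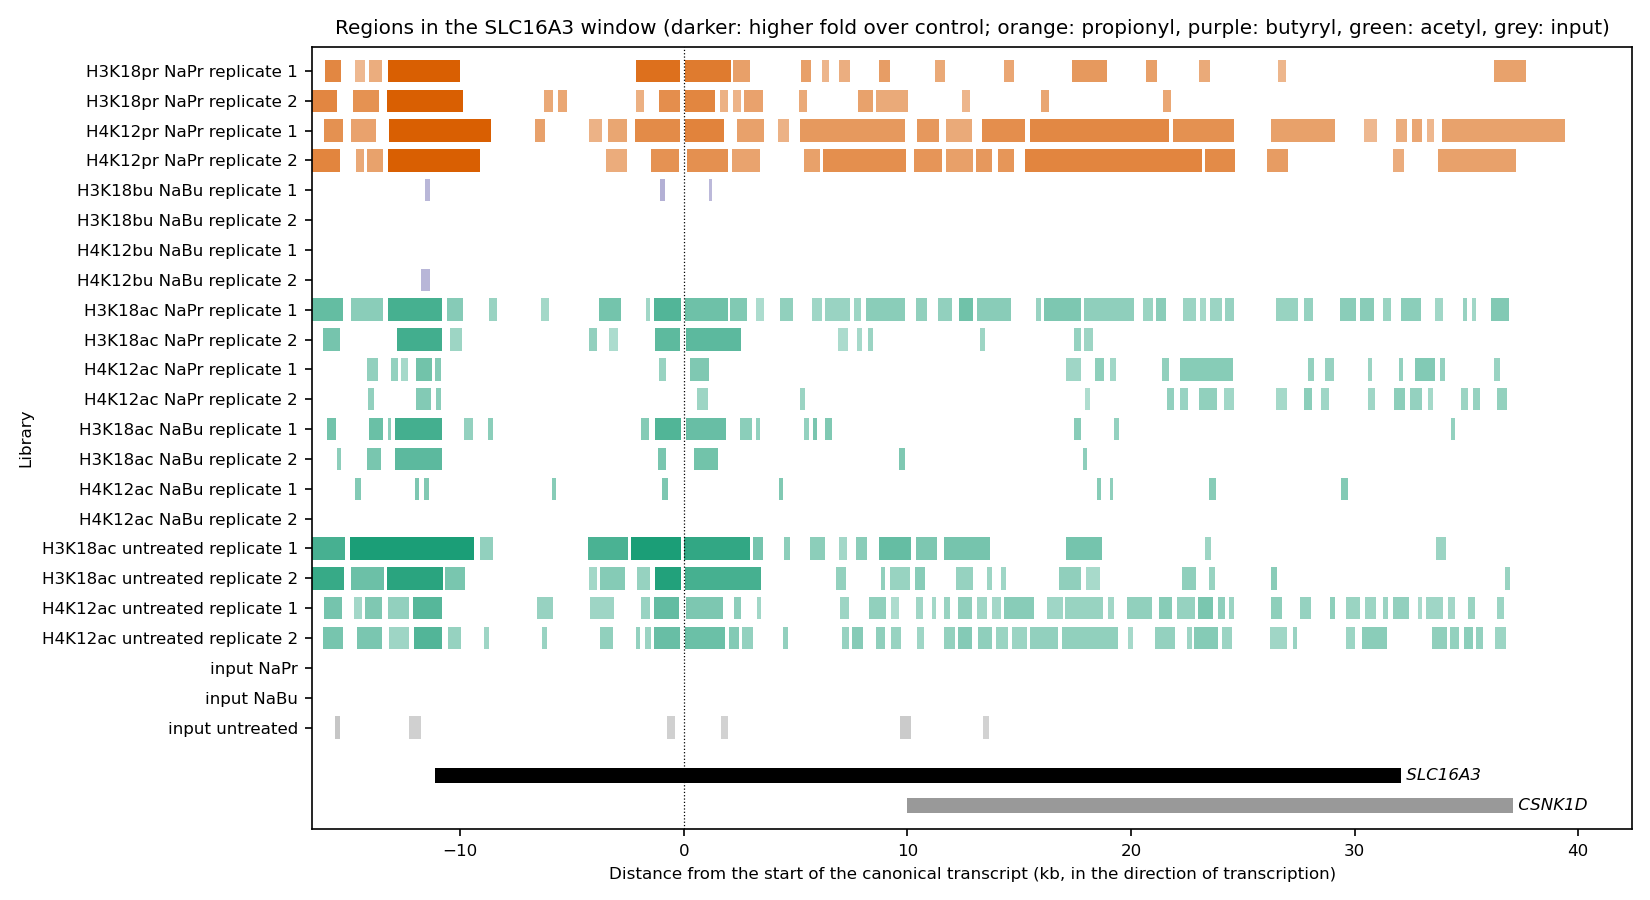
Regions in the SLC16A3 window (bars) by library (y axis) against the distance from the canonical start in kb (x axis), with deeper colour for higher fold and the annotated genes below. The broad dark regions 11.4 to 11.7 kb before the start recur in the propionyl and acetyl libraries, and H4K12pr regions run on into CSNK1D.

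BSG (ENSG00000172270.22, chr19:571277-583494, plus strand) had coverage of 16.99% and 12.7% in the H3K18pr libraries and of 32.6% and 14.5% in the H4K12pr libraries. H3K18ac covered 24.3% and 7.12% after NaPr, 5.75% and 2.52% after NaBu and 23.3% and 20.6% in untreated cells. H4K12ac covered 16.8% and 15.0% in untreated cells, but no H4K12ac region lay anywhere in the window in either library after NaPr. After NaBu, H4K12ac replicate 1 had 1 region covering 1.38%. No butyryl library held a region, and of the inputs only the untreated one did, with 1.96%.

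Regions at BSG fell mostly on both sides of the start and downstream of the gene. The strongest was centred 972 to 1250 bp before the start in 8 libraries, over the divergent lncRNA BSG-AS1, whose 5′ end lies 368 bp away, so that signal there belongs to either transcript. In H3K18ac untreated replicate 1 the strongest region had its summit 16045 bp past the start, just beyond the end of the window, with a fold of 14.3. The strongest regions of H4K12pr replicate 2 and H3K18ac NaPr replicate 2 had summits there too, at 16093 and 16038 bp. Only parts of these regions lay in the window. The start was occupied in 9 of 20 immunoprecipitated libraries: 1 of H3K18pr, both of H4K12pr, both of H3K18ac after NaPr and all 4 untreated ones.

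**Figure D3:**
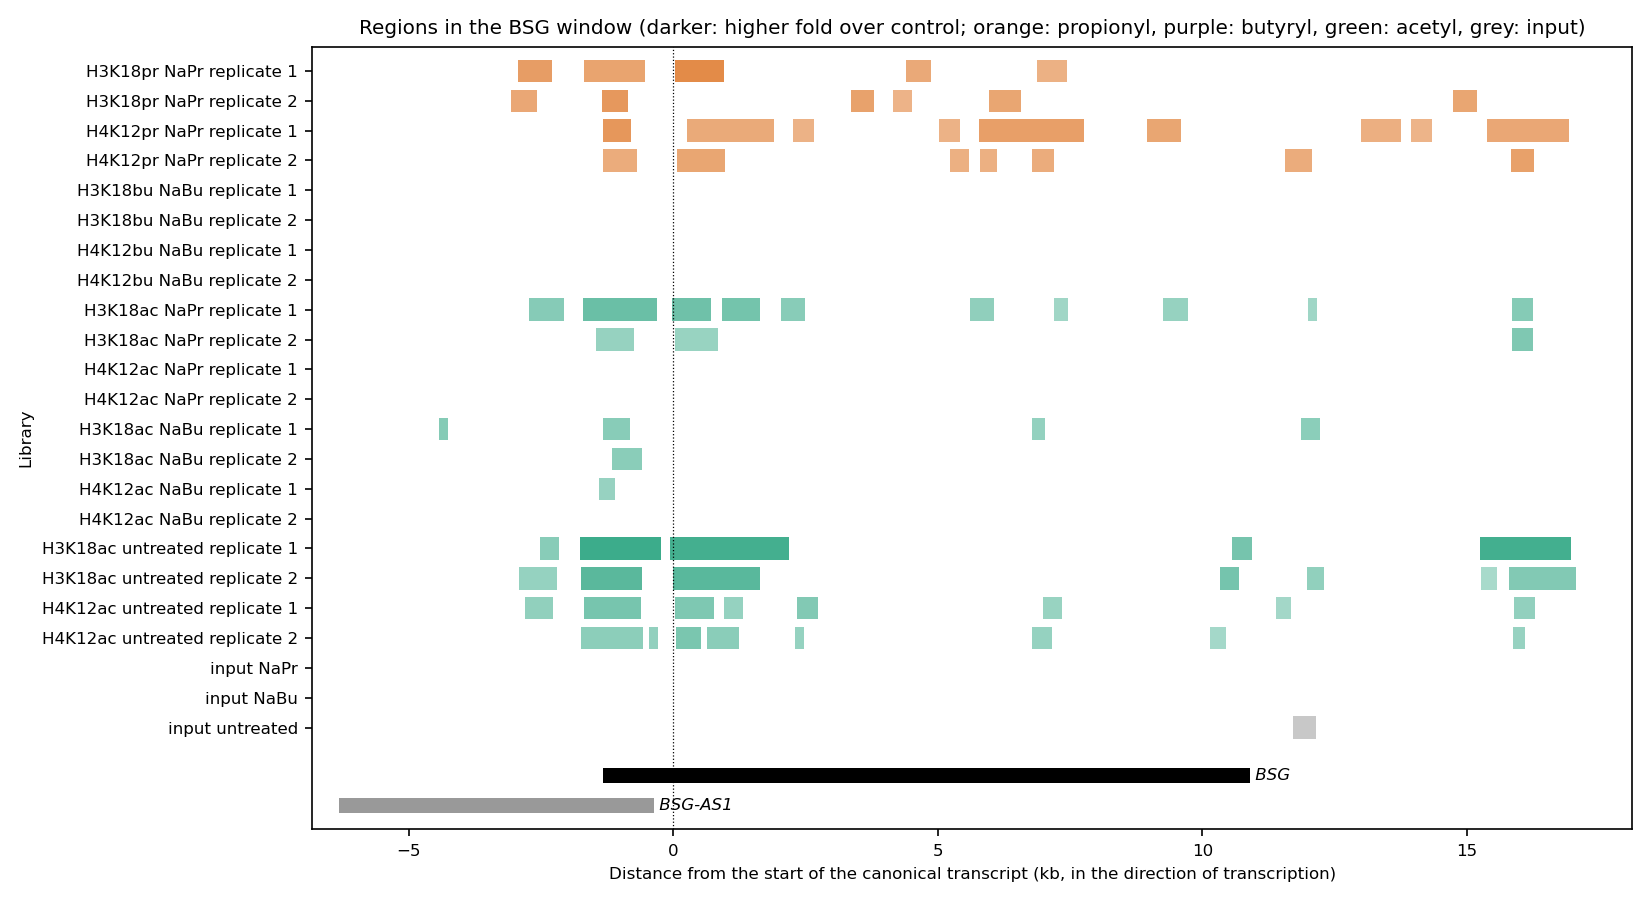
Regions in the BSG window (bars) by library (y axis) against the distance from the canonical start in kb (x axis), with deeper colour for higher fold and the annotated genes below. The H4K12ac NaPr rows are empty, whereas the H4K12pr rows from the same treatment hold 9 and 7 regions.

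SLC16A1 (ENSG00000155380.13, chr1:112911847-112957593, minus strand), the main butyrate carrier of colon epithelium, had its highest group means for H4K12ac in untreated cells and for H4K12pr. The lists of these groups held 208823 and 191194 regions, and 165556 and 122532. H4K12ac in untreated cells covered 23.2% and 19.0%, in 34 and 22 regions, and H4K12pr covered 17.5% and 15.2%. H4K12ac covered 5.87% and 4.23% after NaPr and 1.10% and 0% after NaBu. H3K18pr covered 4.59% and 7.85%, and H3K18ac 19.3% and 4.12% after NaPr, 3.91% and 2.00% after NaBu and 5.72% and 3.80% in untreated cells. The 4 butyryl libraries held no region, and the NaPr input covered 1.31%. Apart from H3K18ac NaPr replicate 1 and the butyryl libraries, the H3K18 marks thus lay between 2.00% and 7.85%.

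The SLC16A1 start was occupied in 12 of 20 immunoprecipitated libraries, in each pair of H3K18pr, H4K12pr, H3K18ac after NaPr, H3K18ac after NaBu and both untreated acetyl marks. In the H4K12ac libraries after NaPr the strongest region lay 9211 and 9665 bp inside the gene and the start was empty. The strongest regions in untreated cells had a fold of 19.2 and 9.97 for H3K18ac and of 4.45 and 6.83 for H4K12ac, with summits 292 to 487 bp before the start. The divergent lncRNA SLC16A1-AS1 starts 219 bp from this start, and these 4 regions held the SLC16A1-AS1 start but ended 107 to 198 bp before that of SLC16A1. In H3K18ac untreated replicate 1 a second region, of fold 9.18, crossed the SLC16A1 start, and in the other untreated libraries weaker regions began 14 to 47 bp past it.

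SLC16A4 (ENSG00000168679.18, chr1:110362851-110391082, minus strand), a transporter of the same family whose substrates are less well defined, had low coverage. Its highest values were 10.5% in H3K18ac NaPr replicate 1, against 0.670% in replicate 2, and 10.3% and 8.58% for H4K12ac in untreated cells. H3K18ac covered 4.72% and 5.27% in untreated cells and 1.56% and 1.72% after NaBu. H4K12ac covered 5.08% and 2.36% after NaPr, and H4K12pr 1.57% and 7.58%. The start was occupied in 10 immunoprecipitated libraries, among them all 4 untreated ones, and also in the untreated input. The lncRNA LAMTOR5-AS1 runs across the whole window on the other strand, and SLC16A4-AS1 starts inside it.

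SLC5A8 (ENSG00000256870.3, chr12:101155493-101210238, minus strand), a sodium-coupled butyrate transporter that is often silenced in colon cancer, was nearly empty. It held 1 region in H4K12pr replicate 1 and 1 in H4K12ac NaPr replicate 1, covering 0.525% and 0.286%, and none in the other 18 immunoprecipitated libraries. The NaPr input covered more, 2.27% in 4 regions, and the NaBu input 0.224%. Its start was occupied in no library, so that no mark was detectable at the SLC5A8 start in these lists.

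ABCG2 (ENSG00000118777.12, chr4:88090150-88231628, minus strand), an efflux pump of the apical membrane, has the longest window, 151479 bp. Coverage did not pass 0.781% in any immunoprecipitated library, and was 1.08% in the NaPr input and 0.434% in the NaBu input. It held 28 regions in 14 immunoprecipitated libraries, spread along the window, and its start was occupied in 7 of them. In both H3K18pr libraries the strongest region lay 48164 bp past and 54539 bp before the start, which was empty. The start was occupied in both H4K12pr libraries and in all 4 untreated acetyl libraries, and after NaPr in H3K18ac replicate 1, but in no NaBu library and in no input. The strongest region at the start, in H4K12pr replicate 1, was 1157 bp wide with a fold of 5.20.

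The receptor genes were small islands of weak regions. FFAR2 (ENSG00000126262.5, chr19:35443907-35451767, plus strand) was covered by 10.3% and 11.3% in the H4K12pr libraries, 2.38% and 6.03% in the H3K18pr libraries and 5.57% and 3.65% in the H3K18ac untreated libraries. H3K18ac covered 0% and 1.73% after NaPr and 3.91% and 1.19% after NaBu, and H4K12ac 0% and 6.66% after NaPr, 0% in both libraries after NaBu and 0% and 1.89% in untreated cells. FFAR2 was the only member besides SLC16A3 with butyryl regions, 1 in H3K18bu replicate 2 and 1 in H4K12bu replicate 1, with summits 1370 and 1316 bp before the start. They placed FFAR2 at percentiles 86.9 and 91.4 of all genes in these short lists. Regions with a summit 1316 to 1409 bp before the start were also the strongest in H3K18pr replicate 2 and in both H3K18ac NaBu libraries, with folds from 2.80 to 3.96 over these 5 libraries. Of these 5 regions, only those of H3K18pr replicate 2 and H3K18ac NaBu replicate 1 had a q-value under 0.05. At that threshold no member held a region in any butyryl library. The start was occupied in 3 of 20.

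FFAR3 (ENSG00000185897.7, chr19:35358460-35360489, plus strand) held 1 or 2 regions in each of 9 immunoprecipitated libraries and its start was occupied in none. In each of these libraries the summit of the strongest region lay in a flank, outside the gene body. Coverage was 6.40% and 4.18% for H3K18pr, 0% and 6.18% for H4K12pr and 1.95% and 2.303% for H4K12ac in untreated cells, against 0% in both H4K12ac NaPr libraries. HCAR2 (ENSG00000182782.8, chr12:122701293-122703357, minus strand), the niacin and butyrate receptor, held 1 region in H3K18pr replicate 1 and 1 in H4K12ac NaPr replicate 1, covering 2.99% and 1.68%, with none at its start. Both genes have close copies next to them. The canonical transcripts of FFAR3 and GPR42 were identical in 99.5% of 1660 aligned bases and those of HCAR2 and HCAR3 in 97.5% of 2056, so that reads of these pairs may be hard to place and empty windows there are uncertain.

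**Figure D4:**
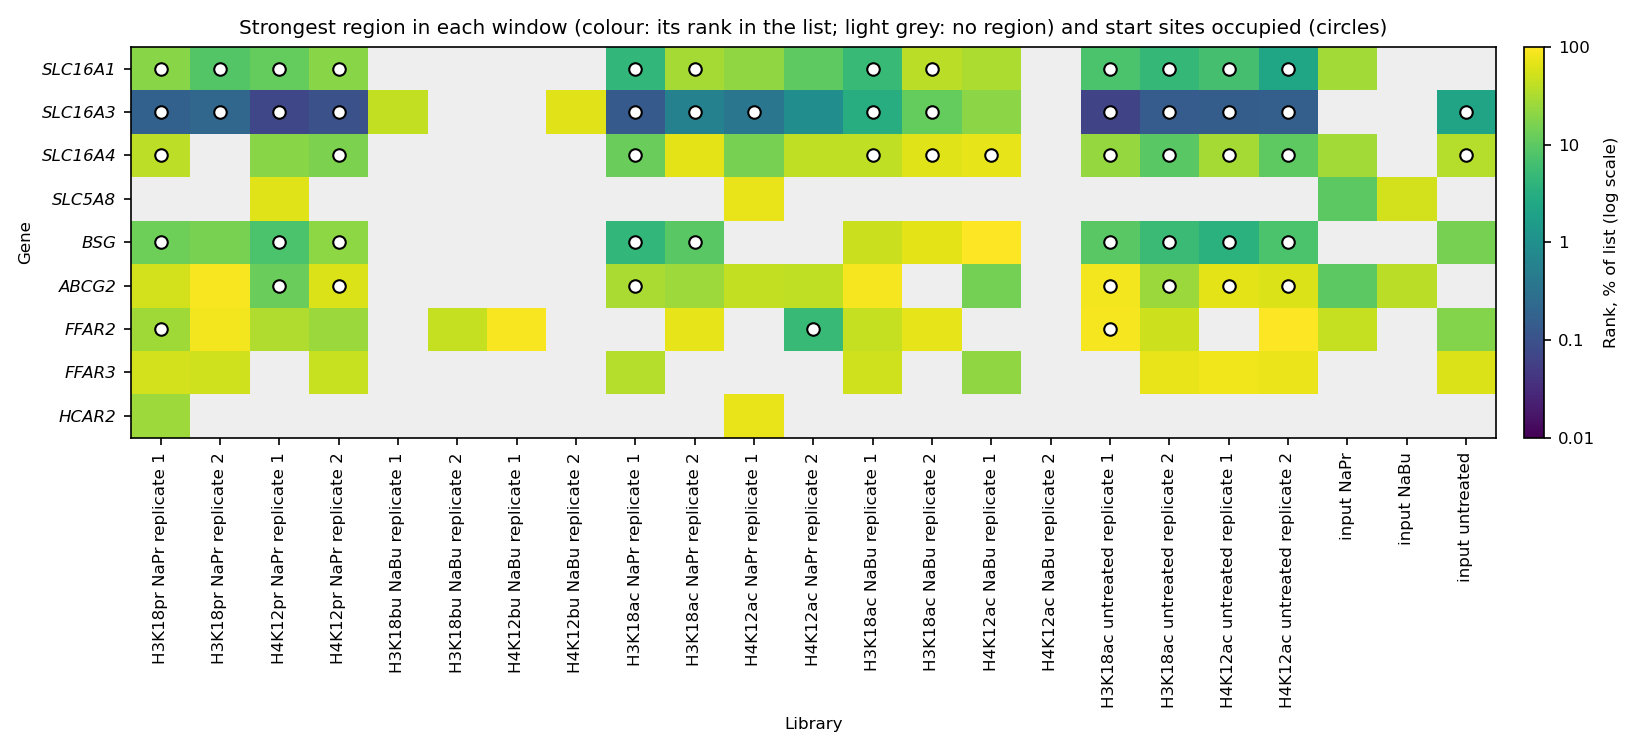
Rank of the strongest region of each gene window as a percentage of its list (colour, log scale, light grey for no region) by library (x axis) and gene (y axis), with circles where the start was occupied. Only SLC16A3 reaches the top 1% of lists, and the butyryl columns are almost empty. In the butyryl lists 61.8% to 79.0% of all genes had no region in their window.

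Start sites of the 9 genes were occupied in 54 of 180 combinations of gene and immunoprecipitated library and in 2 of 27 combinations of gene and input. SLC16A3 accounted for 13, SLC16A1 for 12, SLC16A4 for 10, BSG for 9, ABCG2 for 7 and FFAR2 for 3. The 4 butyryl libraries had none, where 5.81% to 15.6% of all genes had an occupied start. In the H3K18ac and H4K12ac untreated libraries 5 or 6 of the 9 starts were occupied, where 61.7% to 67.2% of all starts were. With only regions that cover the start base itself the count was 13 of 180. The 5′ end of the annotated gene was occupied more often than the canonical start for SLC16A3, BSG and SLC16A1, in 17, 13 and 15 libraries, and less often for ABCG2 and FFAR2, in 0 and 2.

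For the comparisons a gene was called when both libraries of one group were covered more than both of the other. With 2 libraries against 2, the smallest two-sided exact permutation p for a gene is 0.333, so no single gene can pass a test, and counts are read against the same call over all 20033 genes. The untreated acetyl libraries serve both treatments and the NaPr and NaBu acetyl libraries serve 2 comparisons each, so the comparisons are not independent of each other. Differences are in percentage points, so a gene with high coverage can differ by more points than one with low coverage. Ranks of differences are not scaled to coverage.

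The first question was whether propionyl marks lie elsewhere than acetyl marks at the same histone site under NaPr. H4K12pr covered SLC16A3, BSG, SLC16A1 and FFAR2 more than H4K12ac did. These were 4 of 9 genes, beside 61.3% of all genes called in this direction, and no member was called in the other (4.93% of all genes). Mean coverage (± SD, n = 2) was 68.9% ± 7.85 for H4K12pr and 16.7% ± 2.57 for H4K12ac at SLC16A3, a difference of 52.2 percentage points that exceeded that of 99.6% of all genes. At BSG it was 23.6% ± 12.8 against 0% in both libraries, a difference larger than in 91.8% of genes. SLC16A1 had 16.4% ± 1.66 against 5.05% ± 1.16 and FFAR2 10.8% ± 0.717 against 3.33% ± 4.71. The median difference over all genes was 3.40 points in favour of H4K12pr.

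By the presence of any region, BSG was the member with a region in both H4K12pr libraries and in neither H4K12ac NaPr library, as were 4.09% of all genes. By start sites, SLC16A1, BSG and ABCG2 were occupied in both H4K12pr libraries and in neither H4K12ac NaPr library, as were 20.2% of all genes. Only SLC16A3 of the 4 kept its call when each list was cut to its strongest 8158 regions, beside 17.7% of all genes called. With percentiles within each library SLC16A3 and BSG kept theirs (21.7% of all genes) and SLC16A1 was called the other way (44%). The propionyl and acetyl libraries carried different tags, so that mark and tag cannot be told apart here.

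H3K18pr and H3K18ac differed less. Only FFAR2 was called, with 4.20% ± 2.58 for H3K18pr and 0.865% ± 1.22 for H3K18ac, beside 12.5% of all genes, and no member was called towards H3K18ac (11.1%). The result turned on the H3K18ac NaPr libraries. Without replicate 1, SLC16A1, SLC16A3, BSG, FFAR2 and FFAR3 were covered more by H3K18pr, 5 of 9 beside 48% of all genes, and without replicate 2, SLC16A1, SLC16A3, SLC16A4, BSG and FFAR3 were covered less, 5 of 9 beside 58.4%.

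The second question was the same for butyryl marks under NaBu, among libraries with the same tag. H3K18ac covered SLC16A1, SLC16A3, SLC16A4 and BSG more than H3K18bu did, 4 of 9 genes beside 64.4% of all genes, and no member was covered more by H3K18bu (0.0799%). Mean coverage at SLC16A3 was 0.560% ± 0.792 for H3K18bu and 13.4% ± 6.10 for H3K18ac, and at BSG it was 0% in both H3K18bu libraries and 4.14% ± 2.28 for H3K18ac. SLC16A1, SLC16A4 and BSG had a region in both H3K18ac NaBu libraries and in neither H3K18bu library, as did 24.1% of all genes. The starts of SLC16A1, SLC16A3 and SLC16A4 were occupied in both H3K18ac NaBu libraries and in neither H3K18bu library, as were 21.3% of all genes. With equal list lengths SLC16A3 alone was called, beside 19.6% of all genes. For H4K12, no member was called towards H4K12ac (20.1% of all genes) or towards H4K12bu (0.105%), and without the short H4K12ac NaBu replicate 2 there were 6 members covered more by H4K12ac than by H4K12bu, beside 75.8% of all genes.

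**Figure D5:**
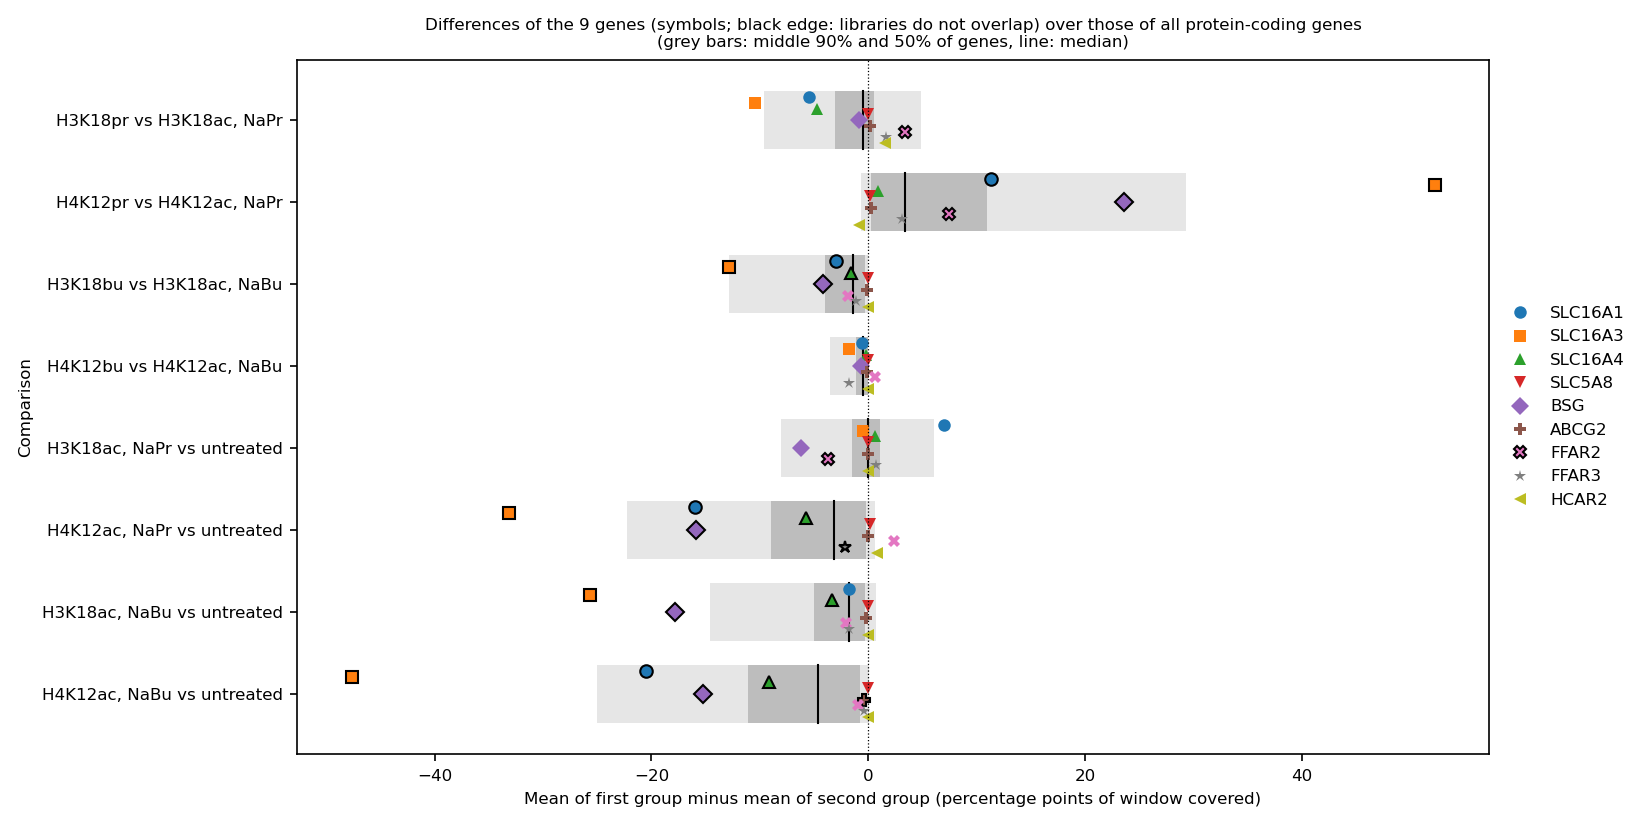
Difference in mean percent of window covered, first group minus second (x axis, percentage points), in the 8 comparisons (y axis) for the 9 genes (symbols, black edge where the libraries do not overlap), over the middle 90% and 50% of all protein-coding genes (grey bars) and their median (line). SLC16A3 lies outside the middle 90% in 5 comparisons, below it in each of them except H4K12pr against H4K12ac. The differences are not scaled to coverage, which was highest at SLC16A3 among the 9 genes.

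The third question was what the acetyl marks do under NaPr, among libraries with the same tag. H4K12ac covered SLC16A1, SLC16A3, SLC16A4, BSG and FFAR3 less after NaPr than in untreated cells, 5 of 9 genes beside 67.3% of all genes, and no member more (5.66%). At SLC16A3 mean coverage was 16.7% ± 2.57 after NaPr and 49.8% ± 0.261 in untreated cells, a difference lower than in all but 1.26% of genes. At SLC16A1 it was 5.05% ± 1.16 against 21.1% ± 2.99, and at BSG 0% in both libraries against 15.9% ± 1.31. The median difference over all genes was −3.21 points. BSG and FFAR3 had regions in both untreated libraries and in neither NaPr library, as did 4.53% of all genes. At FFAR3 this was 1 region per untreated library, of 235 and 277 bp. Their summits lay 6909 and 3244 bp past the start, beyond the gene's end. With a flank of 1 kb FFAR3 was not covered less, and 4 members were, beside 64.2% of all genes. The starts of SLC16A1, SLC16A4, BSG and ABCG2 were occupied in both untreated H4K12ac libraries and in neither NaPr library, beside 29.9% of all genes. None of these coverage calls held with equal list lengths, where 23.4% of all genes were called.

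For H3K18ac the NaPr libraries spanned the untreated ones at SLC16A3, SLC16A4 and BSG. Only FFAR2 was called, with 0.865% ± 1.22 after NaPr and 4.61% ± 1.35 in untreated cells, beside 14.6% of all genes, and no member was called upwards (4.72%). With equal list lengths SLC16A1, SLC16A3 and BSG were covered less after NaPr, beside 12.9% of all genes. Without replicate 1 of the NaPr group, SLC16A3, SLC16A4, BSG and FFAR2 were covered less, 4 of 9 beside 63.6% of all genes, and without replicate 2, SLC16A1, SLC16A3, SLC16A4, BSG and FFAR3 were covered more, 5 of 9 beside 50.8%.

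The fourth question was the same for NaBu, where treatment and tag cannot be told apart. H3K18ac covered SLC16A3, SLC16A4 and BSG less after NaBu, 3 of 9 genes beside 58.7% of all genes, and no member more (3.19%). Mean coverage at SLC16A3 was 13.4% ± 6.10 after NaBu and 39.0% ± 6.04 in untreated cells, and at BSG 4.14% ± 2.28 against 22.0% ± 1.90. These differences were lower than in all but 0.923% and 3.08% of genes. SLC16A1, by contrast, overlapped between the groups, with 2.95% ± 1.35 against 4.76% ± 1.36. The starts of BSG and ABCG2 were occupied in both untreated libraries and in neither NaBu library, beside 8.58% of all genes, while those of SLC16A1, SLC16A3 and SLC16A4 were occupied in both groups.

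H4K12ac covered SLC16A1, SLC16A3, SLC16A4, BSG and ABCG2 less after NaBu, 5 of 9 genes beside 74.3% of all genes, and no member more (0.25%). Mean coverage at SLC16A3 was 2.16% ± 3.06 against 49.8% ± 0.261 and at SLC16A1 0.552% ± 0.780 against 21.1% ± 2.99. The starts of SLC16A1, SLC16A3, BSG and ABCG2 were occupied in both untreated libraries and in neither NaBu library, beside 31.7% of all genes. With equal list lengths SLC16A3 alone was called (23.6% of all genes), and with percentiles ABCG2 was called the other way (39.5%).

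Immunoprecipitated libraries were compared with the input grouped under the same condition for every gene. An exact permutation test of 405 arrangements within conditions (smallest possible p 0.00247) was used, with Benjamini-Hochberg adjustment. Different marks and list lengths are mixed within a condition, so the test compares kinds of library and not a single mark with its input. No gene of 20033 had an adjusted p under 0.05 (0%), while 7545 (37.7%) had an unadjusted p under 0.05, 34.5% of genes with the immunoprecipitated libraries higher and 3.16% with the inputs higher. SLC16A3 was covered by 27.5 points more than the inputs (exact permutation p = 0.00988, adjusted p = 0.0951), BSG by 10.6 points more (p = 0.0543, adjusted p = 0.136, exact permutation) and SLC16A1 by 7.44 points more (p = 0.0765, adjusted p = 0.155, exact permutation). SLC5A8 was covered by 0.796 points less than the inputs (exact permutation p = 0.0123, adjusted p = 0.0951). Over 25 alternative settings the adjusted exact permutation p for SLC16A3 ranged from 0.0161, with percentiles in place of coverage, to 0.445. The other members had unadjusted p-values of 0.0988 or more in this exact test.

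The genes with the most similar pattern over the 20 immunoprecipitated libraries, by Spearman correlation of percentiles and with no test, were GPATCH3 for SLC16A3 (rho 0.96), AJM1 for BSG (0.97), GTF3C4 for SLC16A1 (0.95), FAM114A2 for SLC16A4 (0.91), ERBB4 for ABCG2 (0.96) and NNMT for FFAR2 (0.76). These points share list length and tag, and the part of either in the correlations was not tested.

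Among 23 other genes that carry or sense related acids, the most covered were SLC16A5 (MCT6, median 21.9%), SLC4A2 (an anion exchanger, 12.9%) and SLC16A11 (MCT11, 10.3%). SLC16A5 was covered by 58.4% and 41.5% in the H4K12pr libraries, 8.13% and 3.45% in the H4K12ac libraries after NaPr and 30.4% and 29.6% in those of untreated cells. EMB, the chaperone embigin, held no region in any immunoprecipitated library. H4K12pr covered 9 of the 23 more than H4K12ac did (61.3% of all genes) and 3 less (4.93%), and H3K18pr covered 6 more than H3K18ac did (12.5%) and 1 less (11.1%). H4K12ac covered 12 less after NaPr than in untreated cells (67.3%) and 1 more (5.66%), and 13 less after NaBu (74.3%) and 0 more (0.25%). H3K18ac covered 5 less after NaPr (14.6%) and 1 more (4.72%), and 9 less after NaBu (58.7%) and 0 more (3.19%). Under NaBu, H3K18ac covered 10 more than H3K18bu did (64.4%) with 0 less (0.0799%), and H4K12ac 3 more than H4K12bu did (20.1%) with 0 less (0.105%). SLC16A12 and SLC26A3, an epithelial chloride exchanger, were among the 3 covered more by H4K12ac than by H4K12pr, and SLC16A12 was the gene covered more after NaPr. Windows of SLC16A11 and SLC16A13 overlap and share regions.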

How the data were processed

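ChIP-seq peak lists of 23 libraries of SW480 cells were used, grouped as their labels give. The authors aligned reads to GRCh38.p13 (hg38) with Bowtie2 2.3.1 and called peaks with MACS2 2.1.0 against input, on each library by itself, at a p-value threshold of 0.01 and with blacklisted peaks removed (per the labels and the study's methods). A deposited peak comes with a fold over control (a ratio, at the summit) and with −log10 p-values and −log10 q-values. All of these change with sequencing depth and control. They were used to rank or filter regions inside 1 list. Folds and ranks printed for several libraries describe each list, and their differences between libraries were not tested. The control of the 3 input lists is not given in the sources used here. Aligned reads, on which the study compared marks, were not used here. Depth per library is therefore unknown, and the number of regions stands in its place.

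All 2187390 peaks lay inside the hg38 chromosome lengths. Windows were GENCODE 44 gene bodies ± 5 kb, starts were those of Ensembl canonical transcripts ± 500 bp, and the coverage, start and region counts of all 20033 protein-coding genes were computed in Python 3.11.15 (numpy 2.4.6, scipy 1.17.1) after checks on simulated data. A gene was called in a comparison when the 2 libraries of one group both exceeded those of the other. Inputs were compared by a two-sided exact permutation test within conditions, adjusted by Benjamini-Hochberg over all genes with a threshold of 0.05. Alternatives were a flank of 1 kb, a q-value under 0.05, the strongest 8158 regions of each list and percentiles within a library. Others left out each library, used a replicate block or strata by tag, or took other definitions of an occupied start. The removal of regions that overlap an input region was added after the data were seen. The 9 genes are all described. Of 23 other pathway genes, those called in 2 or more of the 8 comparisons, the 3 most covered or those without a region could be named, besides GPR42 and HCAR3 as close copies of members. The members and lists were chosen with earlier results of these data known.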

Additional observations from a re-analysis of the deposited data

How the results depend on the processing

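Counts below are members of 9 covered more, then less, by the first-named group unless stated, each with the share of all genes so called. Counts not given stayed within 1.5 times the main count. With the strongest 8158 regions of each list, H3K18pr against H3K18ac gave 0 more (9.03%), H4K12pr against H4K12ac 1 more (17.7%), H3K18bu against H3K18ac 1 less (19.6%), H3K18ac after NaPr 3 less (12.9%), and H4K12ac 0 less after NaPr (23.4%) and 1 less after NaBu (23.6%). With percentiles, H3K18pr gave 2 more (20.3%), and H4K12pr 2 more (21.7%) and 4 less (44%). H3K18bu then gave 3 more (39.8%) and 4 less (25%), and H4K12bu 5 more (43.3%). H3K18ac gave 1 more (18.2%) and 2 less (15%) after NaPr, and 1 more (30.2%) and 2 less (21.7%) after NaBu. H4K12ac gave 3 more (44.9%) and 4 less (22.7%) after NaPr, and 4 more (39.5%) and 4 less (26.4%) after NaBu. By construction, genes at 0 share a higher percentile in a short list. With q under 0.05, H3K18bu gave 2 less (57.1%) and H3K18ac after NaBu 5 less (64.8%). Without regions over an input region, H3K18pr gave 2 more (12.5%) and H3K18ac after NaPr 1 more (8.88%). As a replicate block, with same-numbered libraries taken as paired, H3K18pr gave 1 less (22.3%), H3K18ac after NaPr 1 more (8.9%) and 2 less (22.8%) and H3K18ac after NaBu 5 less (64.6%), and it moved no other count by over 1.5 times. Deviations of same-numbered libraries correlated at 0.0847 to 0.325, and with 2 libraries a group the numbers alone do not establish a pairing.

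Leaving out 1 library at a time, members covered more and less ranged from 1 to 5 (15.7% to 48% of all genes) and 0 to 5 (14.8% to 58.4%) for H3K18pr against H3K18ac, and from 4 to 6 (64.2% to 74.1%) and 0 to 1 (7.21% to 11%) for H4K12pr against H4K12ac. They ranged from 0 to 0 (0.185% to 1.17%) and 4 to 7 (65% to 83.1%) for H3K18bu, with 7 without H3K18ac NaBu replicate 2, and from 0 to 1 (0.155% to 2.93%) and 0 to 6 (20.6% to 75.8%) for H4K12bu, with 6 without H4K12ac NaBu replicate 2 and 1 without H4K12bu replicate 2. After NaPr they ranged from 0 to 5 (9.4% to 50.8%) and 1 to 4 (18.6% to 63.6%) for H3K18ac and from 0 to 2 (7.73% to 10.9%) and 5 to 6 (69.9% to 72.9%) for H4K12ac, where FFAR2 was gained without NaPr replicate 1 and SLC5A8 and HCAR2 without replicate 2. After NaBu they ranged from 0 to 0 (3.74% to 12.4%) and 3 to 6 (59.3% to 73.1%) for H3K18ac, with 6 without NaBu replicate 1 and 5 without either untreated library, and from 0 to 1 (0.27% to 8.05%) and 5 to 6 (74.3% to 80.8%) for H4K12ac, where FFAR3 was gained without NaBu replicate 2.

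Against the inputs, percentiles gave 5982 genes with adjusted p under 0.05 by the exact permutation test, SLC16A3 (higher) and SLC5A8 and ABCG2 (lower) among them. Occupied starts numbered 13 of 180 in immunoprecipitated libraries and 1 of 27 in inputs with the start base only, 19 and 0 with equal list lengths, 1 in inputs with the summit in the window and 0 in inputs with q under 0.05. With a flank of 1 kb, each of the 16 counts of members stayed within 1.5 times, though FFAR3 lost its call for H4K12ac after NaPr. Of all values recomputed, 148 stayed within 1.5 times the value reported and 51 did not. The lists carry no reads, so regions under the caller's threshold count as 0. List length, tag and mark or treatment move together in most comparisons, whose parts were not tested.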

Other observations

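HCAR1, the lactate receptor gene that lies beside HCAR2, had a coverage unlike that of its neighbour. H3K18ac covered 11.2% and 12.3% of the HCAR1 window in untreated cells and 12.3% and 4.96% after NaPr, whereas neither H3K18ac library after NaBu held a region there. A region in both untreated H3K18ac libraries and in neither NaBu library was found at 2.65% of all genes. H4K12ac covered 8.92% and 7.39% of the window in untreated cells and 1.15% and 0% after NaBu. The NaBu libraries carried another tag than the untreated ones, so treatment and tag cannot be told apart. The HCAR1 start was occupied in no library.

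SLC9A3 (NHE3), a sodium-proton exchanger of the intestinal brush border, was covered by H3K18ac to 19.7% and 11.6% after NaBu and 13.2% and 17.7% in untreated cells, with overlapping groups. SLC9A3 was covered by H3K18ac to 6.98% and 6.26% after NaPr, below both untreated libraries, as were 14.6% of all genes.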
